A study of Mus musculus with 4 samples.

Results

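The regions described here are intergenic ChIP-seq peaks of PLZF pull-downs from mouse thymocytes, at middle distances from genes. A peak was included when its midpoint lay inside no annotated gene of any kind, 10 to 100 kb from the closest protein-coding gene, and more than 1 kb from every boundary of a long noncoding RNA (lncRNA) gene, on nuclear chromosomes other than Y. Of 9444 peaks in all, 1278 met this rule. They were 570 of 4246 peaks in the NKT list and 708 of 5198 in the PLZF-transgenic list. The rule uses position only, not the values of the peaks.

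The NKT library came from thymocytes of PLZF tg/BirA tg/Valpha14 tg mice, and the PLZF-transgenic library from thymocytes of PLZF tg/BirA tg mice. Both were on a C57BL/6 background, and all mice carried the PLZF transgene and the transgene for BirA, a bacterial biotin ligase. Chromatin carrying the biotin tag was sheared by sonication and captured with streptavidin beads. Of the 4 samples, the 2 pull-downs had peak lists and the 2 inputs were not analysed here. The promoters that drive the transgenes, the number of animals, the age and any sorting of the NKT sample are not stated in the labels. The label NKT is therefore used here as the name of a library, and whether its cells were purified is not known. With 1 library per group there was no replicate error and no test between libraries, and no capture from mice lacking that transgene was used, so nonspecific signal and PLZF binding cannot be told apart. Each peak carried a score from the authors' list. Scores grow with sequencing depth, which is unknown, and were ranked within a list only. Where scores of both lists are set side by side, they are a description and not a measure of different binding.

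PLZF, encoded by Zbtb16, is a BTB zinc finger transcription factor that recruits co-repressor complexes and gives natural killer T cells their innate-like effector functions. Regulatory DNA that lies between genes includes enhancers, which bind transcription factors and act on promoters over long distances. An enhancer need not act on the nearest gene, so gene names below give the position of a peak and not its target. Nearest gene here means the nearest protein-coding gene, also where genes of other kinds lie closer.

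The files hold no sequence of the intergenic peaks themselves. Promoter sequences are shown for the nearest genes with a peak over the promoter as well. The RefSeq promoter table (GRCm38.p6, 250 bases before to 50 after the start) had a window for 347 of the 431 genes nearest to an intergenic NKT peak and for 397 of the 505 nearest to a PLZF-transgenic one. A peak of the same list overlapped such a window in 10 of them in NKT (2.88%, exact 95% interval 1.39 to 5.24%) and in 15 in PLZF-transgenic (3.78%, 2.13 to 6.16%). Of all 17274 protein-coding genes with a window, 2.45% and 3.32% had such a peak, so both shares lie near the background. Of the 273 genes nearest to an intergenic site of both lists, with or without a window, 4 also had a promoter peak in both lists. The share of all genes with a promoter peak in both lists is not given here, so no excess is read from this count. The 4 are printed 5′ to 3′ as examples, and no link between their intergenic and promoter peaks was tested. Ptprc and Nsg2 have 2 windows each under these peaks, and the one with the longer overlap with the NKT peak is printed. Capitals mark matches to 11 short motifs on both strands, which were searched as exact letters. For RUNX factors these were TGTGGT and the longer form TGTGGTT, which contains it. For ETS factors they were CCGGAAG and, as another form, ACAGGAAG. For E box proteins they were CAGCTG and, as another form, CAGGTG. The others were AGATAA for GATA factors, CTTTGAA for TCF factors, TGANTCA for AP-1, CCACNAG for CTCF and TGACGTCA for the cyclic AMP response element.
Ptprc, chr1:138175077-138175376, minus strand: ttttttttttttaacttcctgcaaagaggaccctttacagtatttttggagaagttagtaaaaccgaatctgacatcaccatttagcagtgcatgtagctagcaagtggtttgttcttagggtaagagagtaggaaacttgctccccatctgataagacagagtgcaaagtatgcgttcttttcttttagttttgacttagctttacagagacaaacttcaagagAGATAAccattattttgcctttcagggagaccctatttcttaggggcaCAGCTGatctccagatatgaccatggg
Samsn1, chr16:75909217-75909516, minus strand: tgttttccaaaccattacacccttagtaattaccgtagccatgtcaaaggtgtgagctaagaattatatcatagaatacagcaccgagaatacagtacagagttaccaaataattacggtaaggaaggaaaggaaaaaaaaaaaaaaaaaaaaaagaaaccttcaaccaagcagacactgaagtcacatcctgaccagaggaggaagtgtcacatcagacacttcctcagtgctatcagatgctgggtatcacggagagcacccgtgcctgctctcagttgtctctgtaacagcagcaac
Dusp10, chr1:184034131-184034430, plus strand: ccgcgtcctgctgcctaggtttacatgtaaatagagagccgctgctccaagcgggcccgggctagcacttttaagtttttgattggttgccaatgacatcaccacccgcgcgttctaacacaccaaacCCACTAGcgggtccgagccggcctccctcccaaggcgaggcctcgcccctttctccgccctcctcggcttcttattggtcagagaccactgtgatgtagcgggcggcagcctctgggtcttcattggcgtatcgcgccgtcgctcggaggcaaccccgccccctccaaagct
Nsg2, chr11:32000169-32000468, plus strand: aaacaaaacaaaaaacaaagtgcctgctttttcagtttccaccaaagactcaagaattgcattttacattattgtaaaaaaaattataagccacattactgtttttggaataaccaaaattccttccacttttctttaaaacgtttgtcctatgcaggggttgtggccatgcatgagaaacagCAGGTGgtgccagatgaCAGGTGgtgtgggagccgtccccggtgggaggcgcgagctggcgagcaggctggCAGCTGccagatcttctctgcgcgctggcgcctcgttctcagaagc

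Ptprc encodes the phosphatase CD45, Samsn1 an adaptor of lymphocytes, Dusp10 a phosphatase of MAP kinases and Nsg2 a vesicle protein of neurons. The Ptprc window held 1 GATA and 1 CAGCTG match, the Dusp10 window 1 CTCF match and the Nsg2 window 3 E box matches, and the Samsn1 window held none of these letters. The other window of Ptprc held 1 TCF match and that of Nsg2 2 CTCF matches, with no GATA or E box match in either. Among 32851 promoters of the table, AGATAA occurred in 11.2%, CAGCTG in 16.3%, CAGGTG in 20.2% and CCACNAG in 15.3%, so each is a common match. At Ptprc the intergenic peak lay 16.1 and 16.2 kb upstream, with scores of 273 in the NKT list and 764 in the PLZF-transgenic list, against 74.4 and 236 for the promoter peak. At Samsn1 the intergenic peak, 35.3 kb away, scored 266 in NKT and 289 in PLZF-transgenic, close to the 254 and 297 of its promoter peak. At Nsg2 the order was the reverse. Its promoter peak scored 849 in NKT and 1184 in PLZF-transgenic, and its intergenic peak, 47.3 and 47.4 kb away, 98.2 and 59.1. Dusp10 had promoter peaks of 71.4 in NKT and 86.5 in PLZF-transgenic, each below the median of its list, and its intergenic peaks are described further on.

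Intergenic peaks thinned out with distance from genes. They made up 13.4% of nuclear NKT peaks (exact 95% interval 12.4 to 14.5%) and 13.6% of nuclear PLZF-transgenic peaks (12.7 to 14.6%). Such intervals reflect only the counting error of peaks, which do not stand for animals. Sequence that meets the same rule spans 480.0 Mb, 18.4% of the 2612 Mb between the first and last genes of the chromosomes. This gave 1.19 NKT peaks and 1.48 PLZF-transgenic peaks per Mb, where all nuclear peaks gave 1.62 and 1.99. Per Mb, the NKT density was 1.64 at 10 to 20 kb, 1.21 at 20 to 50 kb and 0.837 at 50 to 100 kb. In the PLZF-transgenic list it was 2.0, 1.62 and 0.927. Beyond 100 kb the densities were 0.446 and 0.413, and within 1 kb of a protein-coding boundary 9.93 and 11.8. Assembly gaps were not removed from these lengths.

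**Figure D1:**
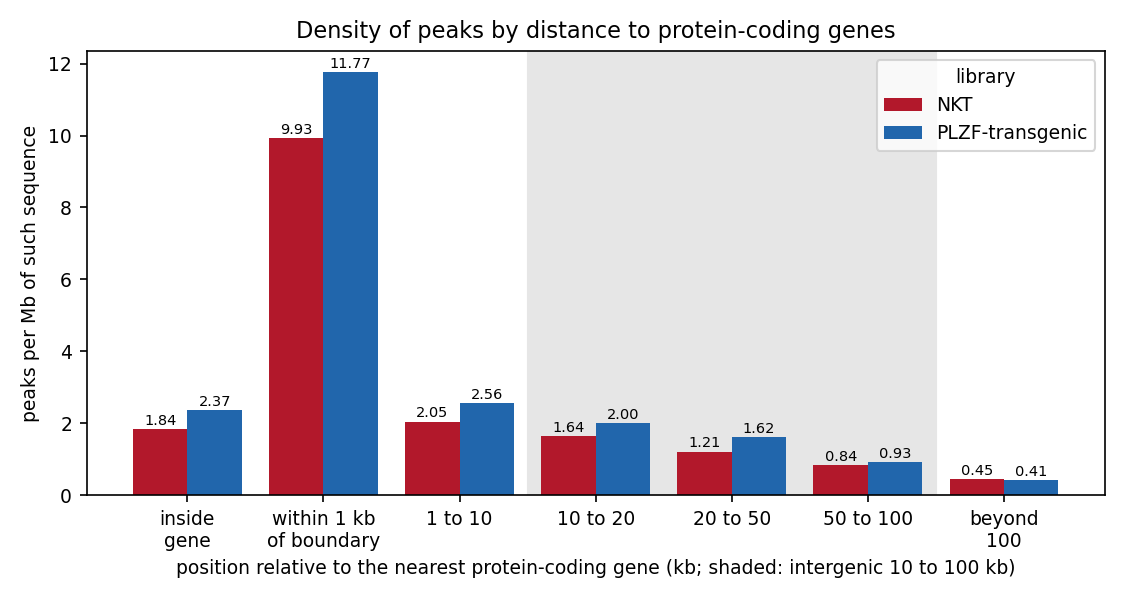
Peaks per Mb of sequence in each class of position relative to protein-coding genes, for the NKT library (red) and the PLZF-transgenic library (blue); the shaded classes are the intergenic peaks described here. Within the shading the density is highest at 10 to 20 kb (1.64 per Mb in NKT and 2.0 in PLZF-transgenic) and lowest at 50 to 100 kb (0.837 and 0.927).

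The median distance to the nearest protein-coding gene was 29.3 kb in the NKT list (quartiles 15.9 to 48.9 kb) and 27.0 kb in the PLZF-transgenic list (16.4 to 45.5 kb). The strand of the nearest gene was known for 449 NKT and 555 PLZF-transgenic peaks. Of these, 259 NKT peaks (57.7%, exact 95% interval 53.0 to 62.3%) and 322 PLZF-transgenic peaks (58.0%, 53.8 to 62.2%) lay on the upstream side of the gene. The upstream side holds 53.7% of such sequence, so per Mb there were 1.29 upstream against 1.10 downstream NKT peaks, and 1.61 against 1.35 PLZF-transgenic peaks. A second protein-coding gene stood within 100 kb on the other side of 328 NKT and 425 PLZF-transgenic peaks. Over all 570 NKT and 708 PLZF-transgenic peaks, the closest gene of any kind was an lncRNA gene for 245 and 314, which the rule keeps more than 1 kb away. It was a pseudogene for 129 and 139, and a protein-coding gene for only 163 and 223.

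The 3 NKT peaks just inside the 10 kb limit had scores of 82.0, 69.5 and 67.0, and the 3 just outside 52.2, 54.6 and 54.7. In the PLZF-transgenic list they were 81.3, 159 and 77.0 inside and 176, 91.2 and 275 outside. At the 100 kb limit, NKT scores were 57.8, 57.3 and 60.6 inside and 60.1, 59.2 and 75.7 outside. PLZF-transgenic scores there were 61.7, 56.4 and 61.9 inside and 105, 99.95 and 130.0 outside. The highest of these, 275, belonged to a PLZF-transgenic peak near Dntt, the gene of terminal transferase.

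In score and width the intergenic peaks lay near the values of their whole lists. Their median score was 71.9 in NKT (quartiles 56.1 to 123) and 115 in PLZF-transgenic (73.2 to 213), where all nuclear peaks had 73.8 and 111. Median widths were 219 and 394 bp, against 224 and 387 bp over all nuclear peaks. Peaks within 1 kb of a protein-coding boundary had medians of 70.8 in NKT and 98.4 in PLZF-transgenic, and peaks beyond 100 kb 69.2 and 125. From the nearest to the farthest distance class of the rule, the median scores were 72.1, 76.0 and 70.3 in NKT and 118, 109 and 123 in PLZF-transgenic. None of these differences was tested.

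Of the intergenic NKT peaks, 358 of 570 (62.8%, exact 95% interval 58.7 to 66.8%) overlapped a PLZF-transgenic peak by at least 1 bp, where 60.7% of all nuclear NKT peaks did. Of the intergenic PLZF-transgenic peaks, 325 of 708 (45.9%, 42.2 to 49.7%) overlapped an NKT peak, where 45.7% of all nuclear PLZF-transgenic peaks did. Both shares lie near the background of their list. Beyond 100 kb the shares were 52.7% (47.2 to 58.2%) and 51.8% (46.1 to 57.5%). Overlap was more frequent at higher scores. With each list divided at its score quartiles, in the class with the highest scores 97.9% of intergenic NKT peaks (93.9 to 99.6%) and 83.8% of intergenic PLZF-transgenic peaks (77.7 to 88.8%) overlapped, against 94.8% and 85.1% of the other nuclear peaks in that class. In the class with the lowest scores the intergenic shares were 33.3% (25.8 to 41.6%) and 11.0% (6.64 to 16.8%), against 30.9% and 16.6%.

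**Figure D2:**
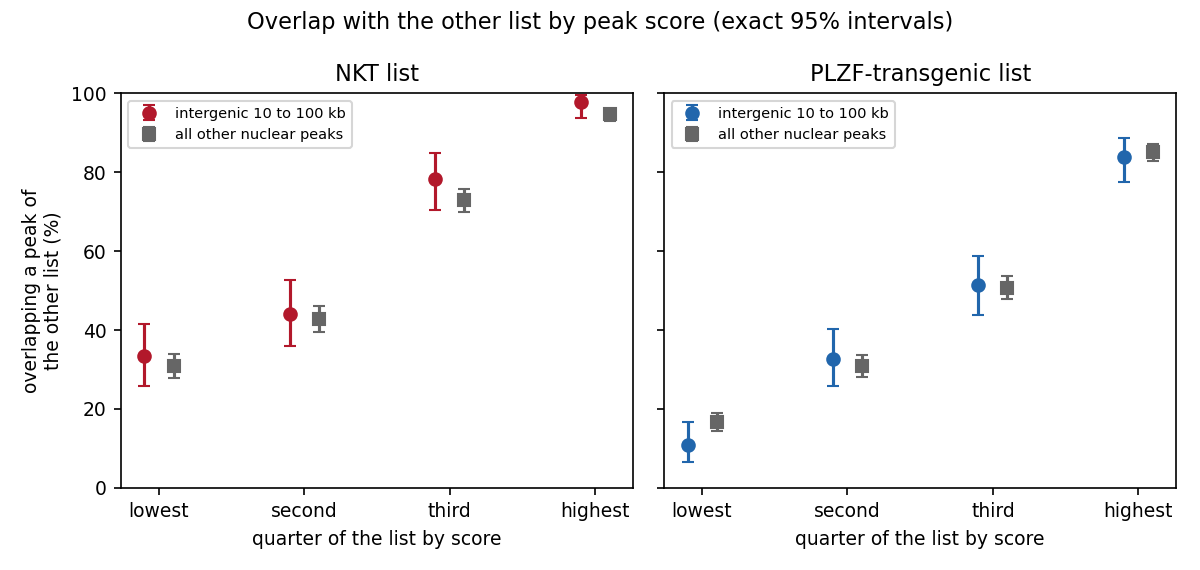
Percent of peaks that overlap a peak of the other list, by score class of the list (divided at the quartiles, lowest to highest), for intergenic peaks (coloured circles) and all other nuclear peaks (grey squares); bars are exact 95% binomial intervals. In each class the interval of the intergenic peaks overlaps that of the other peaks, and in both lists the share is highest in the class with the highest scores (97.9% in NKT and 83.8% in PLZF-transgenic).

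Intergenic peaks without a partner were the weaker and narrower ones. Median scores were 57.2 for the 212 unshared and 104 for the shared peaks in the NKT list, and 85.5 for the 383 unshared and 191 for the shared peaks in the PLZF-transgenic list. The median widths of unshared and shared peaks were 176 and 286 bp in NKT, and 330 and 524 bp in PLZF-transgenic. Distance differed less, with unshared and shared medians of 30.7 and 28.8 kb in NKT and of 26.0 and 27.7 kb in PLZF-transgenic. Across the 325 shared intergenic PLZF-transgenic peaks the score and that of the strongest NKT partner had a Spearman rho of 0.63 (0.61 across all 2370 shared nuclear peaks). Across the 358 shared intergenic NKT peaks, each with its strongest PLZF-transgenic partner, rho was 0.51 (0.53 across all 2575). Both are given as a description, since all pairs share the same 2 libraries and their depths. The PLZF-transgenic score was the higher one at 270 of the 325 PLZF-transgenic peaks (83.1%, and 80.5% over all shared nuclear peaks), a share that moves with the depth of the libraries.

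Some places held several peaks of a list. When intergenic peaks of both lists at most 500 bp apart were merged, 852 sites resulted, of which 322 held peaks of both lists, 190 only NKT peaks and 340 only PLZF-transgenic peaks. Sites in both were 62.9% of 512 NKT sites and 48.6% of 662 PLZF-transgenic sites. Peaks of all classes were not merged in this way, so these shares have no like background. Without merging, 60.7% of all nuclear NKT peaks and 45.7% of all nuclear PLZF-transgenic peaks overlapped the other list. No trait of intergenic sites is read from these counts. A site held 2 or more NKT peaks in 52 cases and 2 or more PLZF-transgenic peaks in 41.

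**Figure D3:**
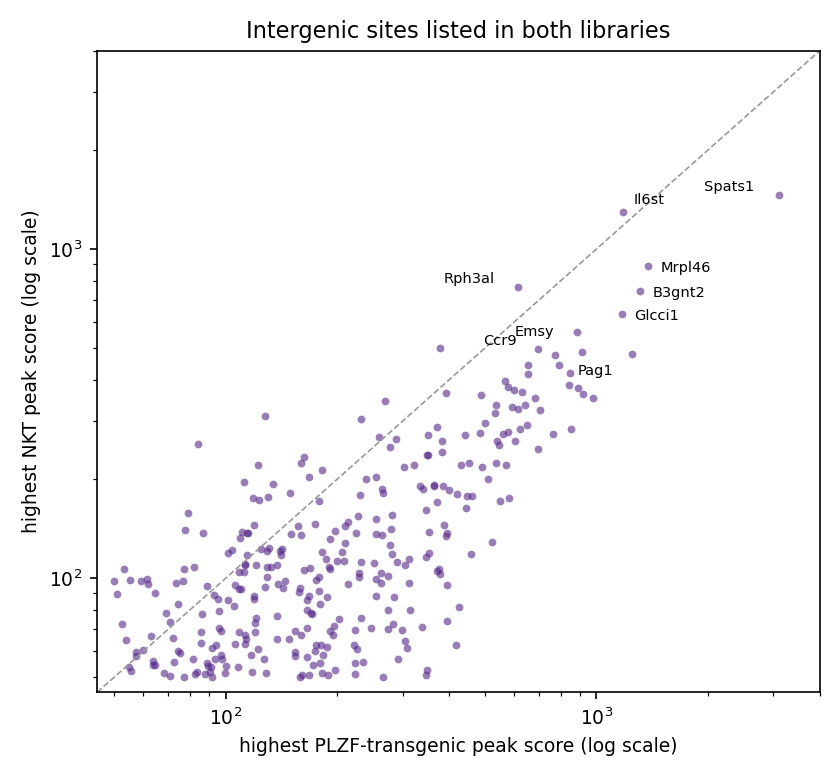
Highest NKT score (vertical) against highest PLZF-transgenic score (horizontal), both on log scales, for each of the 322 intergenic sites with peaks of both lists. The dashed line marks equal scores and names are the nearest protein-coding genes of leading sites. The site near Spats1 is the highest in both lists, and among the named sites those near Rph3al and Il6st lie above the line; the second Il6st site (479.6 in NKT and 1244 in PLZF-transgenic) is unnamed and lies below it.

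The strongest intergenic peaks were common to both lists, and all of the 10 highest of each list overlapped a peak of the other. The highest lay on chromosome 17 in the gap between Spats1 (13.7 kb away) and Aars2 (14.7 kb away), which encodes the mitochondrial alanyl-tRNA synthetase. The next in the NKT list stood upstream of Il6st on chromosome 13 (112427134 to 112428052 in mm10, as all positions here; 919 bp), 36.5 kb from the gene, with scores of 1293 in NKT and 1180 in PLZF-transgenic. Il6st encodes gp130, the signalling chain shared by the receptors for interleukin-6 and its relatives. A second peak 39.4 kb from the gene (112424263 to 112425157) scored 479.6 in NKT and 1244 in PLZF-transgenic. The order of both Il6st peaks was thus opposite in the lists.

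On chromosome 7 a peak 55.7 kb from Mrpl46, a mitochondrial ribosomal protein gene (78718924 to 78720313), scored 888 in NKT and 1380 in PLZF-transgenic. On chromosome 11 a peak between B3gnt2 (18.7 kb) and Commd1 (20.7 kb), at 22878745 to 22879409, scored 747 and 1311. B3gnt2 encodes an enzyme that extends polylactosamine chains on surface glycoproteins. A peak 23.9 kb upstream of Glcci1, a glucocorticoid-induced gene of thymocytes (chromosome 6, 8485158 to 8486228), scored 637 in NKT and 1170.0 in PLZF-transgenic. A peak between Emsy (24.0 kb) and Lrrc32 (61.3 kb) on chromosome 7 (98562866 to 98563466) scored 558 and 888. Lrrc32 encodes GARP, which holds latent TGF-beta on the surface of regulatory T cells.

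The peak 10.6 kb upstream of Rph3al on chromosome 11 (75977847 to 75978673) scored 765 in NKT and 615 in PLZF-transgenic. By rank within the lists, the Emsy, Rph3al and farther Ccr9 peaks (496 in NKT and 694 in PLZF-transgenic for Ccr9) were among the 10 highest intergenic NKT peaks. They were not among the 10 highest PLZF-transgenic ones, though the Emsy score of 888 lay just under the lowest of those 10, 892. Peaks near Ppp1r3b (chromosome 8, 35334056 to 35334724; 363 in NKT and 922 in PLZF-transgenic) and Igsf3 (chromosome 3, 101493664 to 101494608; 377 and 892) were among the 10 highest in the PLZF-transgenic list alone. So were the nearer Ccr9 peak (353 and 977) and the second Il6st peak (479.6 and 1244). In NKT that Il6st peak lay just under the lowest of the 10, 486.

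The highest intergenic NKT peak without a PLZF-transgenic partner lay 21.7 kb from Ly6c2 on chromosome 15 (75085966 to 75087052) with a score of 177. It was followed by peaks near Adamts10 (146), Vmn1r77 (146), the thyroglobulin gene Tg (123) and Ifngr1 (123). The Tg peak overlapped no PLZF-transgenic peak, but one of 130.5 lay within 500 bp of it, in the same merged site. Ly6c2 and Vmn1r77 belong to families of near-identical neighbouring genes, where reads may be placed on the wrong copy. In the PLZF-transgenic list the highest without an NKT partner lay near Tnfaip3 and Dusp10 (described further on), Map3k8 (389), Max (370.1, 94.9 kb away) and Crispld2 (288, 10.9 kb away). Max encodes the DNA-binding partner of MYC.

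The 570 intergenic NKT peaks had 431 nearest protein-coding genes, and the 708 PLZF-transgenic peaks had 505. Of 21631 protein-coding genes this is 1.99% and 2.33%. Only 12063 of these genes have sequence that meets the rule and is nearest to them, and of those it is 3.57% and 4.19%. Both lists named 286 genes, 66.4% of the NKT genes and 56.6% of the PLZF-transgenic genes. The same shares over peaks of all classes are not given here, so nothing particular to intergenic peaks is read from them. There were 2 or more intergenic peaks at 89 NKT genes and 133 PLZF-transgenic genes. A peak of the same list also lay inside the gene or within 1 kb of it at 86 of 431 genes in NKT (19.95%, exact 95% interval 16.3 to 24.0%) and at 131 of 505 in PLZF-transgenic (25.9%, 22.2 to 30.0%), against 9.04% and 10.9% of all protein-coding genes. The other 345 and 374 genes had intergenic peaks and none in or beside the gene. The 9.04% and 10.9% are shares of all 21631 genes. The share among the 12063 genes with sequence of the rule is not given here, so these values are not a like comparison.

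Trim33, a ubiquitin ligase gene that regulates TGF-beta signalling, had the most intergenic NKT peaks. Its 8 NKT peaks had scores of 104, 53.0, 62.7, 165, 77.2, 445, 70.0 and 50.5 in order of distance from 16.3 to 39.1 kb. Its 5 PLZF-transgenic peaks had 109, 94.5, 409, 795 and 274 over the same stretch. All 8 and all 5 had a partner, and merging left 4 sites, each in both lists, so the higher NKT count came from division of the same places. Rasgrp1, which activates Ras downstream of the T cell receptor and is needed for thymocyte selection, had 5 upstream peaks in each list.

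The Rasgrp1 peaks stood 56.7 to 95.8 kb from the gene in NKT, with scores of 182, 137, 167, 120.1 and 374. In PLZF-transgenic they stood 56.6 to 96.0 kb away, with scores of 149, 225, 181, 54.8 and 599. The strongest was the farthest in both. The NKT peak at 75.9 kb overlapped a PLZF-transgenic peak of score 453 that did not meet the rule. Pag1 encodes a membrane adaptor that brings the inhibitory kinase CSK to LCK, and its strongest intergenic peak, 53.6 kb away (chromosome 3, 9886879 to 9887734), scored 486 in NKT and 913 in PLZF-transgenic.

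Ets1, an ETS family factor of lymphocytes, had 4 NKT and 5 PLZF-transgenic intergenic peaks, all in the gap between Ets1 and its paralog Fli1. The strongest (chromosome 9, 32591855 to 32592580), with 444 in NKT and 652 in PLZF-transgenic, was 44.0 kb from Ets1 and 48.8 kb from Fli1. Arl4c, which encodes a small GTPase, had 5 NKT and 4 PLZF-transgenic peaks. Its strongest peak scored 192 in NKT and 365 in PLZF-transgenic, 75.6 and 75.8 kb away, and peaks of 179 and 89.9 nearer to the gene were in the PLZF-transgenic list alone. Irf2bp2, a co-repressor gene, had 5 NKT peaks within 69.0 to 72.8 kb, with a highest score of 138, where PLZF-transgenic had 2 peaks with a highest score of 353, and another PLZF-transgenic peak of 81.6 stood 20.5 kb away.

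The predicted gene Gm52008 on chromosome 12 was the nearest gene of 3 NKT and 6 PLZF-transgenic peaks, the largest PLZF-transgenic count. The other 3 PLZF-transgenic peaks, of 189, 52.7 and 50.2, had no NKT partner. The NKT scores were 191, 178 and 296, and their PLZF-transgenic partners had 385, 446 and 500 (12.2, 27.0 and 48.1 kb from Gm52008). The next protein-coding gene on the far side was Bcl11b, a factor that T cell precursors need to commit to the lineage, 726 to 786 kb from the 6 PLZF-transgenic peaks and 750.2 to 786 kb from the 3 NKT peaks. An enhancer needed for Bcl11b activation is known to lie far downstream of that gene in the mouse. Whether these peaks fall on it was not tested. Bcl11b was named here after the values were seen.

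**Figure D4:**
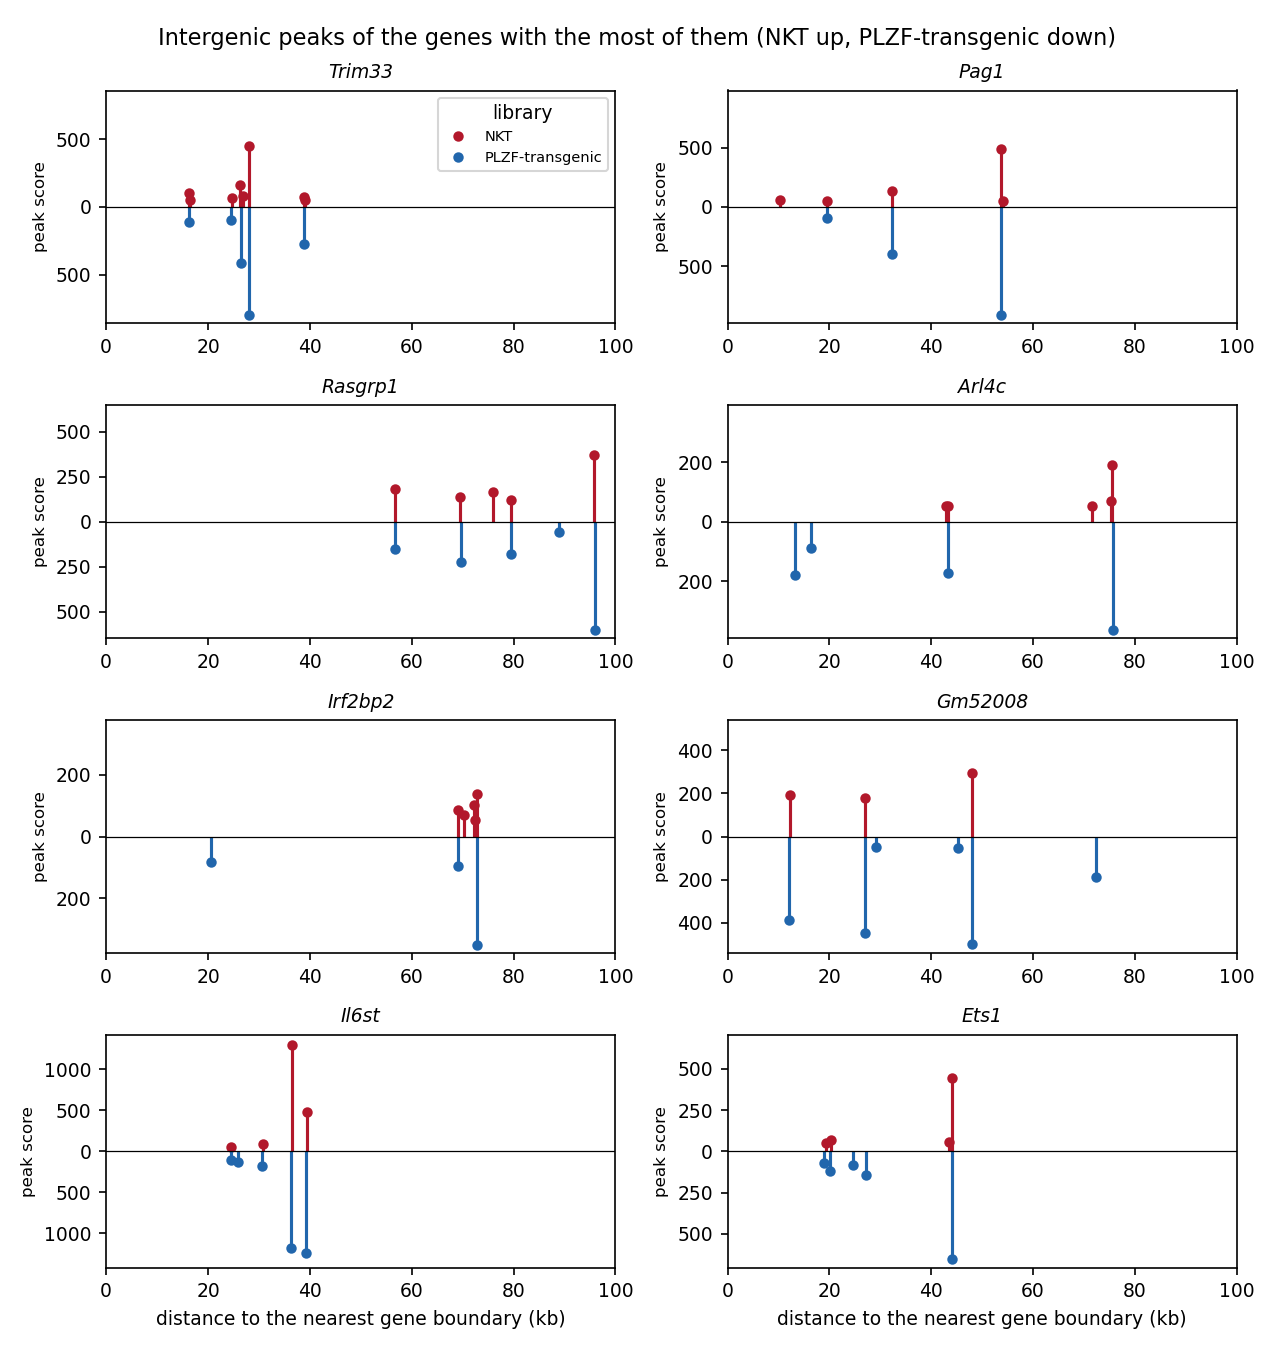
Scores of intergenic peaks (NKT drawn upward in red, PLZF-transgenic drawn downward in blue) against distance to the nearest boundary of the gene, for the 8 genes that are among the 5 with the most such peaks in either list (Dusp10, Ano6 and Smndc1 tie with the fifth in PLZF-transgenic and are not drawn). At Il6st, Rasgrp1, Gm52008 and Trim33 most NKT peaks stand opposite a PLZF-transgenic peak, and at Arl4c the peaks at 13.3 and 16.4 kb are in the PLZF-transgenic list alone.

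Counted by gene list, intergenic peaks lay next to genes of lymphocyte receptors and signalling at shares above the 3.57% and 4.19% of all genes with such sequence. The lists were chosen with earlier results of these data known, so their shares are a description and not independent evidence, and no enrichment was tested. Per Mb of sequence that meets the rule, the lists are read against 1.19 NKT and 1.48 PLZF-transgenic peaks over all genes. Most lists lay above these, also outside signalling. In NKT and PLZF-transgenic, effector genes had 3.63 and 2.42, migration genes 3.42 and 7.98 and survival genes 4.83 and 4.83. Co-repressor genes had 1.22 and 4.88, B cell genes 3.59 and 3.59, ribosomal genes 0 and 7.11 and cell cycle genes 0 and 2.03. Myeloid genes had 0 and 1.47, and stroma and neuronal genes 0 in both.

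Among 43 cytokine receptor, JAK-STAT and SOCS genes, 29 had sequence of the rule and 8 of these had an intergenic NKT peak and 11 a PLZF-transgenic one. All 8 NKT genes were among the 11. The list held 15.5 NKT and 23.9 PLZF-transgenic peaks per Mb, and of its 13 NKT and 20 PLZF-transgenic peaks Il6st had 4 and 5. Besides Il6st the genes included Socs3, the feedback inhibitor of gp130 signalling. Socs3 had 1 peak 13.6 kb downstream (chromosome 11, 117952190 to 117952795) of 417 in NKT and 653 in PLZF-transgenic. Tgfbr1, a TGF-beta receptor chain gene, had peaks 10.8 and 10.6 kb away of 114 in NKT and 187 in PLZF-transgenic. At Ifngr1, a chain of the interferon gamma receptor, the lists held different peaks, 13.7 kb upstream in NKT (123) and 25.8 to 69.6 kb upstream in PLZF-transgenic (51.5 to 96.0). Il10ra (165, 22.9 kb away) and Tgfbr2 (54.2, 12.1 kb) had an intergenic peak in PLZF-transgenic alone, and Tgfbr2 had 1 NKT peak inside or within 1 kb of it.

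Of 52 T cell receptor signalling genes, 33 had such sequence, 9 had an intergenic NKT peak, 8 a PLZF-transgenic peak and 6 both. The densities were 14.5 NKT and 12.2 PLZF-transgenic peaks per Mb. They rest largely on 2 loci with several peaks. Of the 19 NKT and 16 PLZF-transgenic peaks, Pag1 had 5 and 3, and Rasgrp1 5 and 5. Pag1, Rasgrp1 and Ptprc were among those with the highest scores. Itpkb, an inositol kinase gene (142, 16.2 kb away), had an intergenic peak in PLZF-transgenic alone and the CD3 epsilon chain gene Cd3e (96.5, 13.3 kb) in NKT alone. Itpkb and Cd3e both had peaks of the other list inside or within 1 kb of the gene. In the gap between Cd8b1 and Cd8a, which encode the CD8 chains and were named after their values were seen, a peak on chromosome 6 (71353638 to 71354181) scored 214 in NKT and 182 in PLZF-transgenic. It stood 16.4 kb from Cd8b1 and 19.5 kb from Cd8a.

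Regulators of NF-kB and MAP kinases had intergenic peaks at 7 of 34 genes in NKT, all among the 9 in PLZF-transgenic, with 7.23 and 12.1 peaks per Mb. Nfkbia, which encodes the NF-kB inhibitor IkB alpha, had 2 sites 22.8 and 24.3 kb downstream, of 237 and 289 in NKT and of 350.4 and 372 in PLZF-transgenic. The NF-kB inhibitor gene Tnfaip3, which encodes A20, had a common peak 79.1 kb upstream of 118 in NKT and 114 in PLZF-transgenic. It also had PLZF-transgenic peaks of 662 (89.5 kb upstream) and 230 (47.5 kb downstream) that were unshared. Map3k8, a kinase gene of the ERK pathway, had a common peak of 95.4 in NKT and 396 in PLZF-transgenic.

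Of the 9 genes with a PLZF-transgenic peak, 5 encode dual-specificity phosphatases that end MAP kinase signalling. Among the 7 genes with an NKT peak these were Dusp10, Dusp6 and Dusp2. The number of such phosphatase genes in the list of NF-kB and MAP kinase regulators is not given here. No concentration of peaks at these genes is therefore read from the count, and none was tested. Dusp10 had a common site with 113 in NKT and 199 in PLZF-transgenic at 42.5 kb, and a PLZF-transgenic peak of 573 at 26.1 kb with no NKT partner. Dusp5 (229 and 75.8) and Dusp4 (155 and 58.7) had PLZF-transgenic peaks only. A peak that is absent from the NKT list may still lie under its threshold, the lowest intergenic NKT score being 50.2. The difference between the libraries at these places was not tested.

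Of 58 transcription factor genes of the T lineage, 50 had such sequence, 9 had an intergenic NKT peak, 11 a PLZF-transgenic peak and 7 both, with 5.54 and 7.49 peaks per Mb. After Ets1, the highest NKT score was that of Runx3, a RUNX factor of CD8 T cells, with 255 in NKT and 84.3 in PLZF-transgenic (chromosome 4, 135080229 to 135080824, 40.1 kb upstream). Zfp36l2, an RNA-binding protein gene of thymocytes, had 161 in NKT and 347 in PLZF-transgenic at 64.1 kb. Klf13 had 132 and 192 at 45.6 kb. Eomes, a T-box factor gene of effector cells (247, 81.4 kb away), had an intergenic peak in PLZF-transgenic alone and Irf4, an effector factor gene (111, 15.9 kb), in NKT alone. Irf4 also had 4 PLZF-transgenic and 0 NKT peaks inside or within 1 kb of the gene.

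Migration genes had intergenic peaks at 2 of 24 genes in NKT and 4 in PLZF-transgenic. Ccr9, the receptor for the thymic chemokine CCL25, had 2 common sites upstream (chromosome 9). The farther (12.6 kb in NKT and 12.7 kb in PLZF-transgenic) scored 496 in NKT and 694 in PLZF-transgenic, and the nearer (10.3 and 10.4 kb) 353 and 977. Itgal, the LFA-1 alpha chain gene, had 196 in NKT and 112 in PLZF-transgenic at 10.8 kb. Cxcr4 (166, 10.8 kb) and Ccr7 (52.9, 13.3 kb), chemokine receptor genes, had intergenic peaks in PLZF-transgenic alone, and Cxcr4 had 1 peak of each list inside or within 1 kb of it.

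Of 28 effector molecule genes, 19 had such sequence and 2 had an intergenic peak in each list. Only Tnfsf11, which encodes the cytokine RANKL, had one in both, with 247 in NKT and 695 in PLZF-transgenic (48.8 and 48.7 kb away). Il5 had one in PLZF-transgenic alone (55.6) and Fasl, the Fas ligand gene, had 2 in NKT alone (highest 53.8, 93.0 kb away), all close to the lowest scores of the lists. Survival genes had 1 of 18 in each list, the antiproliferative gene Btg1 with highest scores of 171 in NKT and 265 in PLZF-transgenic. Co-repressor and chromatin genes had 1 of 19 in NKT and 4 in PLZF-transgenic, and none in both. The highest were Arid5b (153, 10.6 kb) and Cul3 (117, 72.0 kb), both in PLZF-transgenic alone. Cul3 encodes a scaffold of ubiquitin ligases and a known partner of PLZF.

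Lists of other processes and cell types had few intergenic peaks in number, which does not make their shares low. In PLZF-transgenic, 1 gene each gave 7.14% for cell cycle, 8.33% for ribosomal, 5.56% for myeloid and 14.3% for B cell genes. These lie above the 4.19% of all genes with such sequence. In NKT the B cell share was 14.3%, above 3.57%, and the other lists of this paragraph had 0. Cell cycle genes had 0 of 14 in NKT and 1 in PLZF-transgenic (Mki67, 53.5), and ribosomal protein genes 0 of 12 and 1 (Rpl11, 239, 35.8 kb). Myeloid and dendritic genes had 0 of 18 in NKT and 1 in PLZF-transgenic (S100a9, 58.5), and B cell genes 1 of 7 in each (Cr2, 109.6 in NKT and 113 in PLZF-transgenic). Thymic stroma genes had 0 of 19 and neuronal genes 0 of 25 in both lists. A count of 0 allows a share of up to 21.4% for cell cycle, 25% for ribosomal, 16.7% for myeloid, 15.8% for stroma and 12% for neuronal genes, all above the background of 3.57%. A share below the background was therefore not detectable for these lists. Each limit is 3 divided by the number of genes or by the Mb. Per Mb, the limit was 1.17 peaks for neuronal genes, where all genes had 1.19 NKT and 1.48 PLZF-transgenic peaks. Such a limit treats peaks as independent, but intergenic sites ran in stretches, so no density under the background is read from it. The limit per Mb was 4.42 in NKT for myeloid, 6.08 for cell cycle and 10.7 for ribosomal genes, and in both lists 4.0 for stroma genes, all above those densities.

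**Figure D5:**
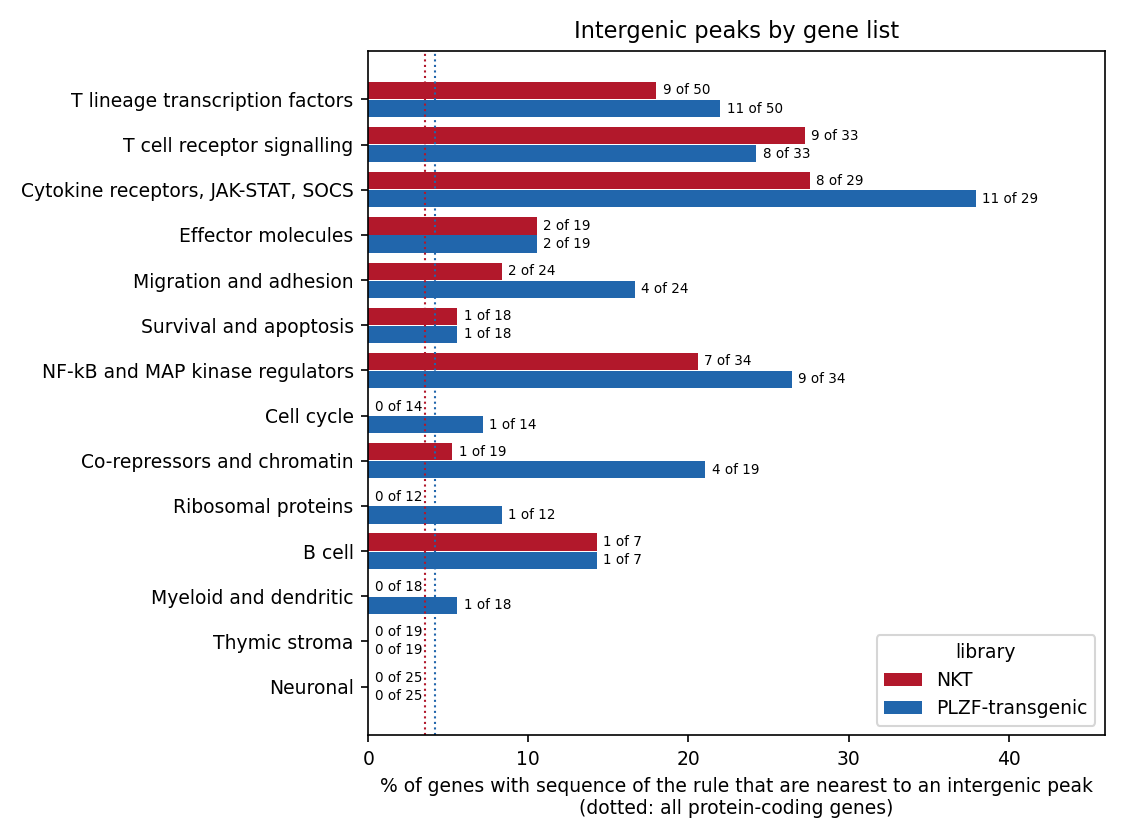
Percent of the genes of each list that are the nearest protein-coding gene of an intergenic peak, among the genes with sequence that meets the rule, for the NKT library (red) and the PLZF-transgenic library (blue). Dotted lines mark the shares over all protein-coding genes with such sequence (3.57% in NKT and 4.19% in PLZF-transgenic). Cytokine receptor, JAK-STAT and SOCS genes have 8 of 29 in NKT and 11 of 29 in PLZF-transgenic, and thymic stroma and neuronal genes have 0 in both.

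Intergenic sites also ran in stretches. With at most 12.5 kb between neighbouring sites of either list, 258 of the 852 sites fell into 109 stretches of 2 or more, and 26 stretches had 3 or more. The longest in kb was that of Rasgrp1, with 6 sites over 40.2 kb, 4 of them in both lists. A stretch of 6 sites over 17.8 kb lay between Il10rb and Ifnar1 on chromosome 16 (91443160 to 91460913), chains of the interleukin-10 and type I interferon receptors. It held 2 NKT and 5 PLZF-transgenic peaks of up to 69.4 and 191, and only 1 site was in both lists. Between Ifnar1 and Ifngr2 a further common site (91533816 to 91534047) scored 110.0 in NKT and 305 in PLZF-transgenic. The stretches with 4 or 5 sites lay by Il6st (15.7 kb, 4 of 5 sites in both lists), Fam102a (13.9 kb, 3 of 5), Ly6m (17.0 kb, 4 of 5), Trim33 (23.1 kb, 4 of 4) and Gng2 (29.4 kb, 1 of 4). These were named after their values were seen.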

How the data were processed

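Streptavidin ChIP-seq peak lists of 1 NKT and 1 PLZF-transgenic thymocyte library were used. Bowtie, Picard and HOMER are named, with build mm10, per the submitters' processing notes. The deposited lists have 5 columns and no header, and the fifth was read as a score given by the authors' peak caller, whose name in the files begins with MACS. Its scale, the depth, any control or pooling and tool versions are not given in the sources used. To give 1-based positions, starts were raised by 1. Genes came from the RefSeq table of GRCm38.p6, and strand from the RefSeq promoter table for 17274 of 21631 protein-coding genes. Distances run from the peak midpoint to the nearest gene boundary. The length of sequence that meets the rule was taken at every 100 bp between the first and last gene of each chromosome. Sites (gap of at most 500 bp) and stretches (12.5 kb) were defined after seeing the data. The planned motif search in peaks was not run because no genome was used, and promoters were searched instead. All 498 gene entries of 14 lists were in the table. The members and lists were chosen with earlier results of these data known. Regions were named as the 10 highest members and 5 highest unshared members per list, and genes as the 5 with the most members, up to 4 per gene list with members in both libraries and up to 2 in 1 library. Intervals are exact (Clopper-Pearson, 95%). Classes and overlaps were tested on simulated peaks. Python 3.11.15, numpy 2.4.6, pandas 2.3.3, scipy 1.17.1 and matplotlib 3.10.9 were used. The alternatives were other distance limits, other lncRNA limits, the whole peak outside genes, the higher-scoring 50% of each list, removal of dense runs, other overlap rules and both flanking genes. A region that the naming rule selects is not reported here.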

Additional observations from a re-analysis of the deposited data

How the results depend on the processing

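Of 102 values under the alternatives, 78 stayed within 1.5 times the count or within the 95% interval of the share or median. With a 20 kb inner limit there were 374 NKT and 468 PLZF-transgenic members next to 280 and 332 genes, at median distances of 42.8 and 37.1 kb. A 5 kb inner limit gave median distances of 19.98 and 20.6 kb and a 50 kb outer limit 21.6 and 22.3 kb, shifts that follow from the limits. With the higher-scoring 50% of each list there were 278 NKT and 370 PLZF-transgenic members next to 226 and 297 genes, with median scores of 127 and 201, median widths of 331 and 545 bp, and 75.5% and 54.1% shared. Reciprocal 50% overlap lowered the shared percent to 37.0% in NKT and 29.7% in PLZF-transgenic, and midpoints within 1 kb raised it to 50.8% in PLZF-transgenic. Naming both flanking genes gave 761 PLZF-transgenic genes. Removing runs of 5 or more peaks within 20 kb, planned as a proxy for repeats, also removes dense places such as Il6st, and left 58.9% of NKT and 43.0% of PLZF-transgenic members shared. No paired analysis was possible because each group had 1 library, and leaving out a replicate was not possible for the same reason. The depth is unknown, so a peak missing from a list may lie under its threshold.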

Other observations

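Further places were picked after their values were seen and are given as values. The MAP kinase phosphatase gene Dusp6 had 1 intergenic site upstream in both lists, with highest scores of 80.1 in NKT (21.7 kb away) and 314 in PLZF-transgenic (21.4 kb). At Dusp2, another phosphatase gene of this family, NKT and PLZF-transgenic peaks of 51.8 and 90.5 lay about 17 kb upstream, beside each other and without overlap. The ribosomal protein gene Rpl11 was the nearest gene of PLZF-transgenic peaks of 239 and 59.6, and the next protein-coding gene on the other side, 54.6 and 53.7 kb away, was Id3, which encodes an inhibitor of E proteins that limits natural killer T cell numbers. Near Ly6m, of the Ly6 family of surface proteins, NKT peaks of 64.7, 97.8, 335 and 68.8 stood beside PLZF-transgenic peaks of 54.0, 144 and 641, and reads may be shared between near-identical Ly6 copies.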
